A study of Mus musculus with 12 samples.

Results

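The cytosolic ribosomal protein genes were described in MC38 tumor cells with and without the RAC1 A159V mutation. They were the protein-coding genes of the mouse GENCODE M21 annotation whose symbols start with Rpl, Rps or Rplp followed by a number and at most 1 of the letters a, l or x, which leaves out the S6 kinases and the mitochondrial ribosomal proteins. The rule found 79 genes among the 33219 features of the count table. Of these, 77 passed a filter on low counts that kept 14340 features: 30 of the small 40S subunit, 44 of the large 60S subunit and 3 of the 60S stalk. The 2 genes that did not pass were Rpl10l and Rpl39l, with at most 2 counts in any library. A few ribosomal proteins whose symbols do not follow the pattern (such as Rpsa, Rps3a1, Fau and Rack1) are outside the rule.

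MC38 is a mouse colon adenocarcinoma line, and A159V is a substitution in the small GTPase RAC1 that was knocked in at the endogenous locus with CRISPR-Cas9 and is homozygous in the mutant line. WT or A159V cells were grown under the skin of C57BL/6 mice of 6 to 8 weeks, and the mice received 100 µg of anti-PD1, which blocks an inhibitory receptor of T cells, or IgG control antibody every 3 days from day 3 until harvest at day 13. Tumor cells were taken from the digested tumors with a tumor cell isolation kit before bulk sequencing of polyA-selected RNA. Each genotype was sequenced after each antibody, which gave 4 groups of 3 libraries, 12 in all, named here by the numbers in their labels. The mutant line used was mainly 1 clone, so the mutation and other differences of the line cannot be told apart. Each group came from 3 mice, although the labels do not tie each library to a mouse, and p-values measure the spread between these libraries.

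Each ribosome carries 1 copy of most of its proteins, so the genes that encode them are expressed strongly and in near-constant proportions in growing cells. Their mRNAs are short and most begin with a 5′ terminal oligopyrimidine tract, a C followed by a run of C and T, through which mTORC1 and the RNA-binding protein LARP1 control their translation. That control acts on translation, which sequencing of mRNA does not measure.

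The start sites of the 9 genes called between the genotypes below are shown with that of Rps6, the S6 kinase substrate, because the oligopyrimidine tract is the feature the family is known for. RefSeq (GRCm38.p6) held a promoter for 59 of the 79 genes. Each window below runs from 10 bases before to 20 bases after the first annotated start, and capitals mark the longest run of C and T where it reached 5 bases.
Rpl11, chr4:136053374-136053403, minus strand: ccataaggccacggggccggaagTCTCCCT
Rpl24, chr16:55966265-55966294, plus strand: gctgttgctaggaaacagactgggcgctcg
Rpl37, chr15:5116603-5116632, plus strand: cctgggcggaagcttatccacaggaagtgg
Rpl37a, chr1:72711250-72711279, plus strand: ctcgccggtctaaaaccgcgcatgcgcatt
Rpl41, chr10:128549149-128549178, minus strand: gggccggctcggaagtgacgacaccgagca
Rps12, chr10:23787190-23787219, minus strand: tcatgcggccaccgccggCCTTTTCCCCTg
Rps15, chr10:80292421-80292450, plus strand: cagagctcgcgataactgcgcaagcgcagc
Rps21, chr2:180257369-180257398, plus strand: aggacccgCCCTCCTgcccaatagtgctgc
Rps24, chr14:24490668-24490697, plus strand: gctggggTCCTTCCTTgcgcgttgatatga
Rps6, chr4:86857348-86857377, minus strand: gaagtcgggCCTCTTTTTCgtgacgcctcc

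A run of at least 8 C or T lay in this window in 20 of the 59 ribosomal protein genes (33.9%) and in 3021 of all 27025 genes of the table (11.2%). The median longest run was 6 bases in the ribosomal protein genes and 4 in all genes. The annotated first base need not be the base at which most transcripts start, so a window without a run does not show that the mRNA lacks the tract. The letters GGAAGT, searched on both strands from 250 bases before to 50 after the start, were present in 29 of the 59 promoters (49.2%) and in 24.1% of all promoters. That search was chosen after the sequences had been seen.

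The level of the family was first compared between libraries. Levels are given as CPM, read counts relative to library totals that were scaled by the trimmed mean of M-values (TMM). The ribosomal protein genes took 10.9%, 7.22% and 5.83% of all counts in WT IgG libraries 1, 2 and 4. They took 5.79%, 5.94% and 5.28% in the WT anti-PD1 libraries 1 to 3. The shares were 6.47%, 5.86% and 6.94% in A159V IgG libraries 1, 2 and 5, and 6.01%, 6.09% and 6.61% in A159V anti-PD1 libraries 1 to 3. For WT the means were 7.97% ± 2.60 (SD, n = 3) after IgG and 5.67% ± 0.345 after anti-PD1, and for A159V they were 6.42% ± 0.542 after IgG and 6.24% ± 0.326 after anti-PD1. WT IgG 1 was the highest library and its group overlapped each of the others.

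**Figure D1:**
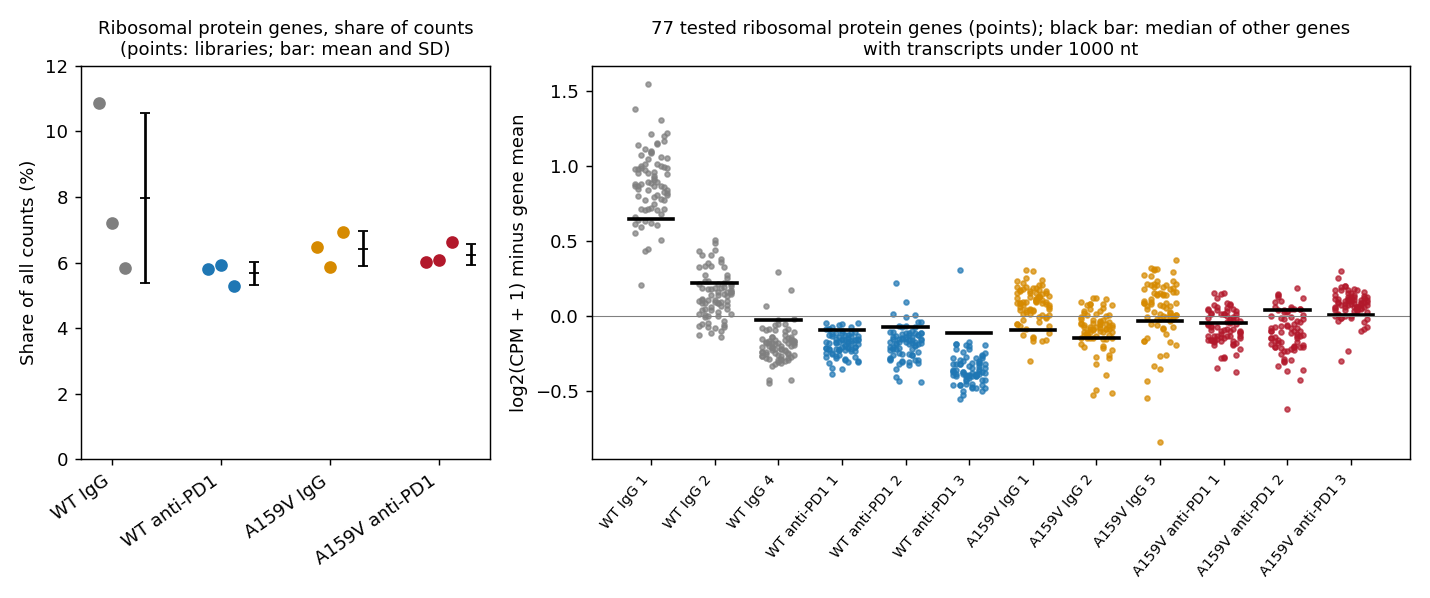
Left, the share of all counts on ribosomal protein genes in each library (points), with the mean and SD of each group of 3. Right, for each of the 77 tested genes (points), log2(CPM + 1) minus the gene's mean over the 12 libraries, with the median deviation of other genes with transcripts under 1000 nt as a black bar; the points of WT IgG 1 all lie above 0 and those of the 3 WT anti-PD1 libraries nearly all below it.

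The genes moved between libraries almost as a block. In WT IgG 1 all 77 genes lay above their own mean, with a median deviation of 0.88 on the log2 scale and a range of 0.43 to 1.55. In the WT anti-PD1 libraries 0, 4 and 1 of the 77 genes lay above their mean. WT IgG 1 also stood apart outside the family: genes with principal transcripts under 1000 nt had a median deviation of 0.64 there and those of 3000 nt or more of -0.38, against 0.22 and -0.12 in WT IgG 2, the next library. The median transcript length of the ribosomal protein genes was 780 nt, and that of all other tested genes 2723 nt. A159V IgG 5 stood apart by base composition, with a median deviation of -0.78 for other genes under 42% GC, and by 0.832% of counts on the mitochondrial genome against 2.00% to 4.70% in the other 11 libraries. Total counts per library ranged from 14053582 to 21949942, so counting error is small for all but the rarest members.

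The labelled cell type was checked against marker genes. The epithelial markers Epcam, Krt8, Krt18, Krt19 and Cdh1 were near 0, with a highest value of 1.68 CPM, so they did not mark these cells as epithelial. The summed CPM of 15 leukocyte markers in WT was 28.7 to 31.6 after IgG and 44.3 to 76.1 after anti-PD1, and in A159V it was 40.4 to 57.6 after IgG and 42.4 to 45.9 after anti-PD1. Ptprc, the pan-leukocyte gene, was at most 0.278 CPM in the 6 A159V libraries and 7.46 to 14.2 CPM after anti-PD1 in WT. Among the 6 fibroblast markers the sums in WT were 235 to 459 CPM after IgG and 356 to 602 CPM after anti-PD1, against 161 to 228 CPM and 133 to 187 CPM in A159V. Of the tested markers, edgeR called 5 of 8 leukocyte, 4 of 6 fibroblast, 2 of 3 endothelial and 2 of 2 red blood cell genes lower in A159V under anti-PD1, and 1 fibroblast gene higher. Of all genes, 10.2% were called lower and 11.2% higher. Under IgG edgeR called 2 leukocyte genes lower and 1 higher, and 3 fibroblast genes lower and 0 higher. It also called 1 endothelial gene higher and 2 of 2 red blood cell genes lower, against 15.6% of all genes higher and 12.4% lower. In both comparisons 3 of the 8 leukocyte genes were above 0. Leukocyte and fibroblast genes thus differed with the genotype, and for leukocytes the summed level and the called genes did not go the same way under IgG. With a leukocyte marker score as covariate, 0 members were called lower under IgG and 0 higher under anti-PD1. Calls over all genes fell too, from 12.4% to 4.23% lower under IgG and from 11.2% to 0% higher under anti-PD1. The part of fibroblast RNA was not tested. In bulk RNA, fewer cells of a type and less RNA per cell cannot be told apart.

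Levels of single members spanned a wide range. Per kilobase of annotated exon, the most strongly expressed were the stalk genes Rplp1 (1926 RPKM) and Rplp0 (1855 RPKM), whose proteins bind elongation factors. Per kilobase of principal transcript they were Rps2, a 40S protein near the mRNA entry channel (2667 RPKM), and Rplp0 (2266 RPKM). The lowest tested members by principal transcript were Rpl3l, a striated-muscle paralog of Rpl3 (0.328 RPKM, a mean of 8.17 counts), and Rpl24 (6.96 RPKM, a mean of 85.9 counts). Rps27l, a p53-inducible paralog of Rps27, stood at 67.8 CPM on average. The low level of Rpl24, a 60S protein at the subunit interface, comes with a feature of the annotation: 83.4% of its coding bases lie in exons of an overlapping transcript, Gm28037, on the same strand, which had 0 counts in all libraries. How reads in shared exons were counted is not given in the sources used here, so the counts of Rpl24 may cover only part of its mRNA. Rpl13a had 90.3% of its coding bases in exons of other genes of the same strand but a mean of 20368 counts.

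The first comparison asked how ribosomal protein genes differed between A159V and WT tumor cells under IgG. A gene was called where edgeR's quasi-likelihood test gave a Benjamini-Hochberg adjusted p under 0.05 over all 14340 genes and the log2 fold change exceeded 0.3 in size. Of the 77 genes, 8 were called lower in A159V and 0 higher. Of all genes tested, 12.4% were called lower and 15.6% higher (16.1% and 9.32% with upper-quartile scaling), so the share of members called lower (8 of 77) was near that background. The median log2 fold change was -0.32 over the members and 0.02 over all genes, and 70 of the 77 members were below 0. The lower calls were spread over both subunits, 4 of 30 in the 40S and 4 of 44 in the 60S. In 3 members all A159V libraries lay below all WT libraries and in 0 above (16% and 19.8% of all genes).

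Rpl24 had the smallest p. It was at 10.5, 6.67 and 5.62 CPM in WT IgG 1, 2 and 4 and at 3.81, 2.83 and 2.02 CPM in A159V IgG 1, 2 and 5. All 3 mutant libraries lay below the 3 WT libraries, with a log2 fold change of -1.40 (SE 0.27, edgeR quasi-likelihood adjusted p = 0.00315). These values rest on 38 to 193 counts per library.

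Rpl41 encodes the smallest protein of the family, a peptide of basic residues. Its values were 3031, 1374 and 991 CPM in the WT libraries and 842, 719 and 994 CPM in the mutant ones. The mutant library 5 and WT library 4 overlapped, and the log2 fold change was -1.08 (SE 0.31, edgeR adjusted p = 0.0205). Rpl37, a zinc-finger protein of the 60S subunit, was at 855, 448 and 419 CPM in WT and 332, 305 and 367 CPM in A159V. The groups did not overlap, and the log2 fold change was -0.78 (SE 0.23, edgeR adjusted p = 0.0225).

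The other 5 called genes followed the same pattern with WT IgG 1 highest. Rps12, whose 40S protein lies at the beak, was at 1910, 1115 and 806 CPM in WT and 741, 656 and 810 CPM in A159V. Rps15, a protein of the 40S head, was at 2117, 1075 and 772 CPM in WT and 762, 652 and 837 CPM in A159V. Rps24, a gene mutated in Diamond-Blackfan anemia, was at 2179, 1263 and 918 CPM and 976, 848 and 819 CPM. In Rps12 and Rps15 the groups overlapped through WT IgG 4, and in Rps24 through A159V IgG 1. The log2 fold changes of these 3 and of Rps21 and Rpl37a, a zinc-finger protein of the 60S subunit, ranged from -0.82 to -0.71, with edgeR adjusted p from 0.0375 to 0.0429.

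Members known for particular roles were not called in this comparison. Rps6 had a log2 fold change of -0.26, and the 5S particle genes Rpl5 and Rpl11, whose proteins bind Mdm2 when ribosome assembly fails, had -0.10 and 0.07. The stalk genes Rplp0, Rplp1 and Rplp2 had 0.05, -0.45 and -0.40. The X-linked Rps4x and Rpl10 had -0.27 and -0.18, and the ubiquitin fusion gene Rps27a had -0.33. Rpl38, which is needed for translation of some Hox mRNAs, had -0.79 with an edgeR adjusted p of 0.0582. Of the paralogs, Rps27 had -0.57 and Rps27l -0.38, and Rpl3 had -0.12 and Rpl3l -0.27 (SE 0.52). Rpl39, with Rpl41 among the shortest proteins, had -0.52, Rpl10a -0.36 and Rpl13a -0.30.

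The difference depended on single libraries. Leaving out 1 library at a time gave between 1 and 38 members called lower, with 38 called without WT IgG 4, where 13.4% of all genes were called lower, and 1, Rpl24, called without A159V IgG 1 (7.73% of all genes) or A159V IgG 2 (7.74%). Without WT IgG 1 the median over the members was -0.02 and 3 members were called lower (11.8% of all genes), Rpl24 (-1.15, edgeR adjusted p = 0.00678), Rpl41 (-0.53, 0.0396) and Rpl37 (-0.43, 0.0338). With all libraries, 1529 other genes with transcripts under 1000 nt had a median log2 fold change of -0.47, against -0.36 for the 54 ribosomal protein genes of that length. Each library's trend with transcript length was also removed, an alternative chosen after seeing the data. The median of the members was then 0.05, with 5 called higher and 4 lower (14.8% and 13.9% of all genes). Rpl24, Rpl41 and Rpl37 were among the 4, at log2 fold changes of -0.99, -0.53 and -0.43.

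**Figure D2:**
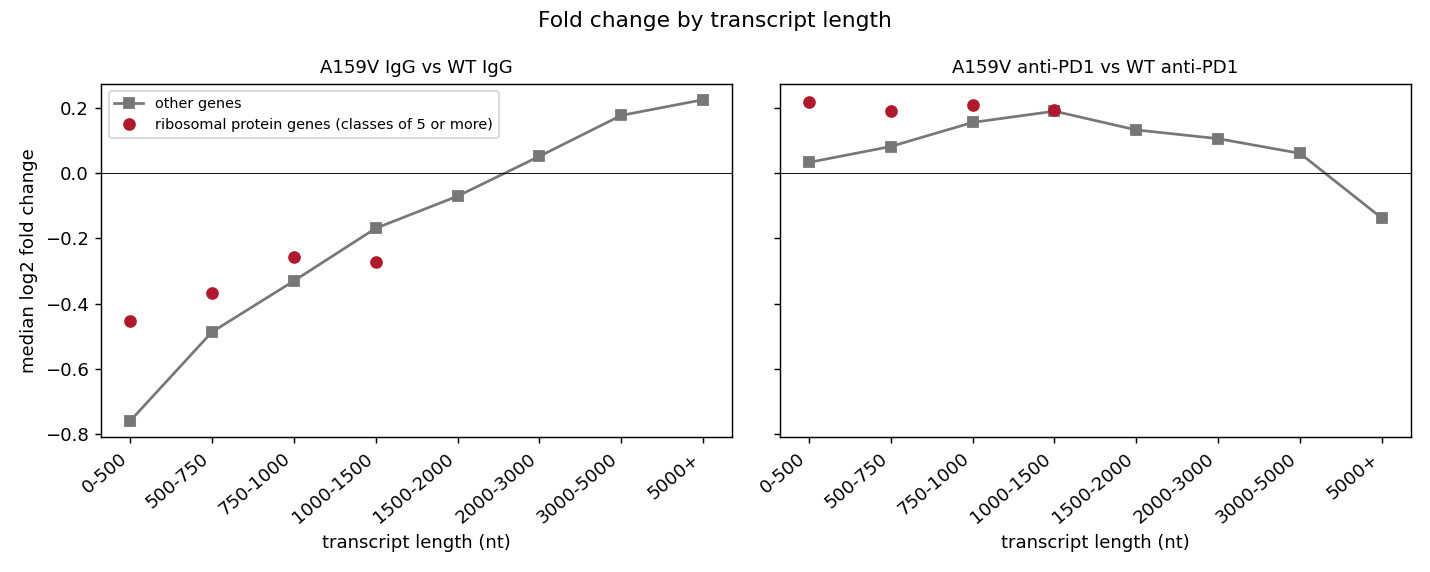
Median log2 fold change (y axis) by class of principal transcript length in nt (x axis) for other genes (grey squares) and ribosomal protein genes (red points, classes with at least 5 members), under IgG (left) and anti-PD1 (right). Under IgG other genes run from -0.76 in the shortest class to above 0 in transcripts of 2000 nt or more, and the ribosomal protein genes lie below 0 in each class shown.

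The second comparison set the genotypes side by side under anti-PD1. Here 1 of the 77 genes was called higher in A159V and 0 lower, against 11.2% higher and 10.2% lower among all genes (6.49% and 12.5% with upper-quartile scaling). The members shifted together by a small amount: the median log2 fold change was 0.20 (0.06 over all genes) and 72 of 77 were above 0. In 38 members all 3 A159V libraries lay above all 3 WT libraries, and in 0 below, against 32.6% and 23.5% of all genes. The direction of the median was the same with the 3 other scalings of whole libraries. WT IgG 1 is not in this contrast but enters the shared estimate of spread. Without it 4 members were called higher, against 12.2% of all genes.

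The called gene was Rpl11. It was at 670, 661 and 597 CPM in WT anti-PD1 1 to 3 and at 921, 971 and 1078 CPM in A159V anti-PD1 1 to 3. Each mutant library lay above each WT library, with a log2 fold change of 0.62 (SE 0.21, edgeR quasi-likelihood adjusted p = 0.0478). The call was lost with each of the 3 other scalings and with the exon length trend removed (0.49, edgeR adjusted p = 0.0533), and 0 members were called when any 1 library other than WT IgG 1 or WT IgG 4 was left out. It held without WT IgG 1 and with the length trend of principal transcripts removed (0.49, edgeR adjusted p = 0.00846). With that trend removed Rpl11 was also called higher under IgG (0.41, edgeR adjusted p = 0.0173).

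Rps2 had the next smallest p. It was at 2257, 2016 and 1891 CPM in WT and 2953, 2693 and 3120 CPM in A159V, which do not overlap, and had a log2 fold change of 0.51 (SE 0.20, edgeR adjusted p = 0.0848). Rpl22, a 60S protein also known as an RNA-binding tumor suppressor, had 0.48 (edgeR adjusted p = 0.132). Rpl6 had 0.45 (edgeR adjusted p = 0.142). Without WT IgG 1, the genes called were Rpl11, Rps2, Rpl6 and Rpl22.

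Toward lower values no member came near the threshold. Rps12 had a log2 fold change of -0.21, Rpl41 of -0.11 and Rpl37 of -0.02, and Rpl24, the member with the smallest p under IgG, had 0.17. The stalk genes lay between 0.23 and 0.26, Rps6 at 0.24 and Rpl5 at 0.27. Rpl3l had -0.75 (SE 0.52) on about 8 counts per library.

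**Figure D3:**
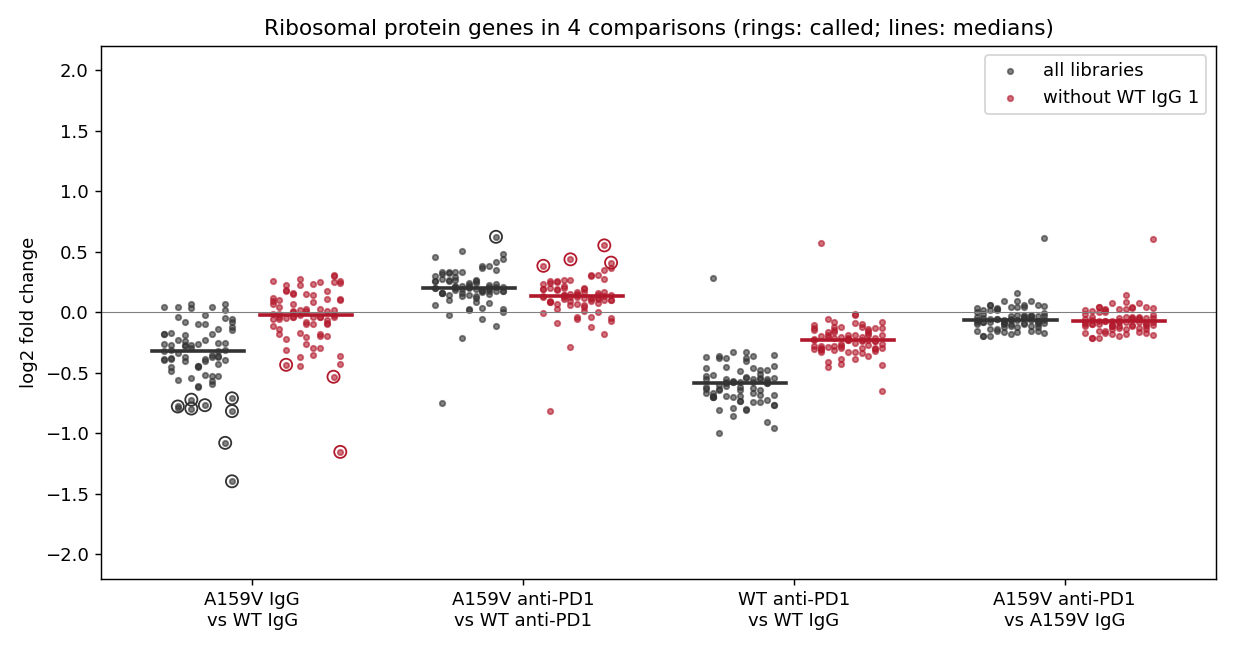
Log2 fold changes (y axis) of the 77 genes (points) in the 4 comparisons (x axis), with all libraries (dark) and without WT IgG 1 (red); lines are medians and rings mark called genes. The medians of the comparisons that use WT IgG move from -0.32 to -0.02 and from -0.59 to -0.23 when WT IgG 1 is left out, whereas that between genotypes under anti-PD1 moves from 0.20 to 0.13.

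The third comparison was anti-PD1 against IgG in each genotype. In WT, 76 of 77 members were below 0 after anti-PD1, with a median log2 fold change of -0.59 (0.01 over all genes). Other genes with transcripts under 1000 nt had a median of -0.42, with 24.1% above 0. Mitochondrial ribosomal protein genes had a median of -0.53, with 0 of 76 above 0. Yet 0 members were called by edgeR, where 0.495% of all genes were called higher and 0.132% lower. An unadjusted p under 0.05 was reached by 65 of 77 members and 27.5% of all genes. DESeq2 called 24 members lower, where it called 5.31% of all genes lower, and voom called 0. In 26 members the 3 anti-PD1 libraries lay below the 3 IgG libraries and in 0 above (15.8% and 18.8% of all genes). Rpl37 had the smallest p, at 333, 340 and 310 CPM after anti-PD1 against 855, 448 and 419 CPM after IgG (log2 fold change -0.81, SE 0.23, edgeR adjusted p = 0.0777). Rpl38 had the largest fall in value, at -0.99 (edgeR adjusted p = 0.0841).

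The size of the difference depended on WT IgG 1, and the sign of its median did not. Without that library the median was -0.23, with 76 of 77 members still below 0 and 0 called. The members move together and do not count as replicates. WT IgG 4 had a median member deviation of -0.20, inside the range of the WT anti-PD1 libraries (-0.37 to -0.18). The difference that remained without WT IgG 1 therefore rested on WT IgG 2 (0.13). Without WT IgG 4, the WT IgG library with the lowest ribosomal protein share, the median was -0.81 and 69 members were called lower, against 11.4% of all genes. The range of the family's share of counts within WT IgG, 5.83% to 10.9%, was wider than the difference between the means of the WT groups, 7.97% and 5.67%.

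In A159V the members hardly moved with anti-PD1. The median log2 fold change was -0.06, with 20 of 77 above 0 and a range from -0.20 to 0.62. EdgeR called 0 members, DESeq2 0 and voom 0, and edgeR called 0% of all genes in either direction. Rps6 was at -0.08, Rplp0 at -0.16, Rpl5 at 0.04 and Rpl39 at 0.09. The lowest values included those of Rps7 (-0.20), Rpl3l (-0.19) and Rps10 (-0.19), and after Rpl24 the highest was that of Rpl37a (0.16). Only Rpl24 had an unadjusted p under 0.05 (0.62, edgeR adjusted p = 1), as did 3.63% of all genes. Its groups did not overlap, being 2.02 to 3.81 CPM after IgG and 3.87 to 4.90 CPM after anti-PD1. It was the 1 member of 77 whose anti-PD1 libraries lay above the IgG libraries, and 0 lay below (4.51% and 6.5% of all genes).

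The anti-PD1 change was then compared between genotypes with an interaction term. The difference, A159V minus WT, was above 0 in 76 of 77 members with a median of 0.54, and 0 members were called by edgeR (0.00697% of all genes). Other genes with transcripts under 1000 nt had a median of 0.52, with 80.0% above 0. Mitochondrial ribosomal protein genes had a median of 0.51, with 76 of 76 above 0, so the shift was not particular to the family. DESeq2 called 1 member, Rpl24, higher (0.718% of all genes), and voom 0. An unadjusted p under 0.05 was reached by 9 members and 17.6% of all genes. Without WT IgG 1 the median difference was 0.15.

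The proportions of the members among themselves were then compared, which does not depend on how libraries were scaled to other genes. Each gene's counts were divided by the total of all 79 members in the library. The comparisons under IgG and under anti-PD1 share no library, and 17 members separated the genotypes in the same direction in both. In 1 member, Rps7, the directions were opposite, higher in A159V under IgG and lower under anti-PD1. In 7 genes the share was higher in all 6 A159V libraries than in all 6 WT libraries, and in 10 it was lower. Divided by the same total, 6.85% of all genes were so separated toward higher and 3.77% toward lower. Such scaling centers the members but carries their common shift into other genes. In the fit scaled to the members, the median of all genes was 0.18 under IgG and -0.18 under anti-PD1. The shares of all genes, here and in that fit below, are therefore not a like background for the members. Among the 7 were Rpl6, Rpl11, Rpl12, Rpl18, Rpl22 and Rps2, and the 10 were Rpl23, Rpl30, Rpl37, Rpl41, Rps12, Rps15, Rps19, Rps26, Rps27 and Rps29.

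Rps12 made up 1.64%, 1.60% and 1.45% of the ribosomal protein counts in WT IgG 1, 2 and 4 and 1.35%, 1.57% and 1.44% in WT anti-PD1 1 to 3. In A159V it made up 1.07%, 1.06% and 1.19% after IgG and 1.08%, 0.880% and 1.20% after anti-PD1. The lowest WT library was thus above the highest A159V library, and WT IgG 1 did not stand apart from WT IgG 2 in this measure.

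Rpl11 made up 1.13%, 1.34% and 1.15% in WT IgG and 1.18%, 1.18% and 1.21% in WT anti-PD1. In A159V the shares were 1.47%, 1.49% and 1.61% after IgG and 1.47%, 1.60% and 1.58% after anti-PD1. Rps2 had a median share of 3.80% over the 6 WT libraries and 4.63% over the 6 A159V libraries. Rpl41 had medians of 1.80% and 1.33%, with WT IgG 1 the highest at 2.60%.

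Rpl37, Rps15 and the zinc-finger genes Rps27 and Rps29 were also among those with lower shares. Rpl37 had median shares of 0.634% in WT and 0.511% in A159V, and Rps15 1.46% and 1.19%. Rps27, the shortest member by principal transcript at 345 nt, had 0.682% and 0.569%. On the other side, Rpl12, a protein of the stalk base, had 1.72% in WT and 2.01% in A159V, and Rpl22 0.687% and 0.799%.

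When libraries were scaled to the members' total in the fit of all genes, edgeR called Rpl24 and Rpl41 lower under IgG (log2 -1.13 and -0.73, adjusted p = 0.0191 and 0.0161) and 0 members higher. In that fit 4.36% of all genes were called higher and 3.3% lower. Groups did not overlap in 15 members toward higher and 20 toward lower, against 16.1% and 8.58% of all genes. Under anti-PD1 the same fit called 0 members, against 1.35% of all genes higher and 6.26% lower, and Rps12 (-0.46, edgeR adjusted p = 0.0755) and Rpl11 (0.38, 0.0889) were nearest to the threshold. Under anti-PD1, groups did not overlap in 9 members toward higher and 16 toward lower, against 14.9% and 36.9% of all genes.

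Across the 75 members with a mean of at least 1000 counts, the genotype differences in share correlated between IgG and anti-PD1 with Pearson's r = 0.73, and with r = 0.77 without WT IgG 1. This is a description across genes, which share their libraries and their total. Without WT IgG 1, all 10 genes of the lower set were still below 0 under IgG and all 7 of the higher set above 0. The 2 sets differed in transcript length, with a median of 612.5 nt for the lower and 1242 nt for the higher set, and the part of length in this pattern was not tested apart from the fits above.

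**Figure D4:**
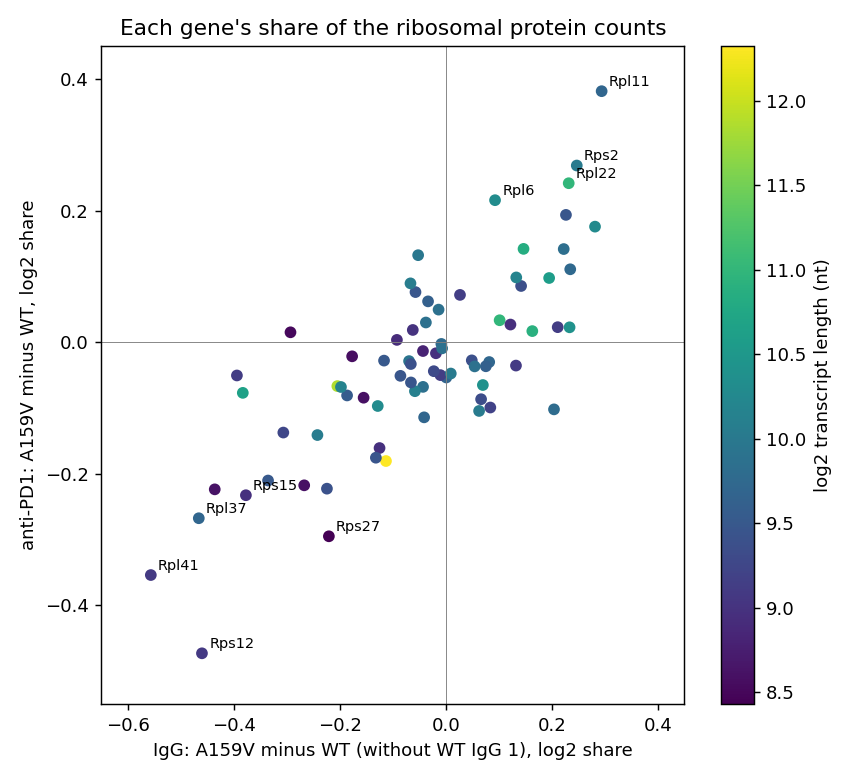
Log2 difference between genotypes (A159V minus WT) in each gene's share of the ribosomal protein counts, under IgG without WT IgG 1 (x axis) and under anti-PD1 (y axis); points are the 75 members with a mean of at least 1000 counts, colored by log2 transcript length. Rps12 and Rpl41 lie low in both and Rpl11 and Rps2 high in both (r = 0.77).

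Genes that make or regulate ribosomes were set beside the family from lists fixed in the design. Of 46 ribosome biogenesis factors, which transcribe, modify and assemble ribosomal RNA, 12 were called higher and 0 lower in A159V under IgG (median 0.25), against 15.6% of all genes called higher. Under anti-PD1, 21 were called higher and 0 lower, against 11.2% of all genes higher, and all 46 were above 0 (median 0.52). The counts ranged from 9 to 17 under IgG and from 14 to 34 under anti-PD1 over the 3 other scalings, the removal of the length trend, and the fits without WT IgG 1 and without both WT IgG 1 and A159V IgG 5. In those fits the share of all genes called higher ranged from 9.32% to 16.8% under IgG and from 6.49% to 17.3% under anti-PD1.

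Nop2, an rRNA methyltransferase, stood in WT at 322, 294 and 246 CPM after IgG and 239, 244 and 201 CPM after anti-PD1, and in A159V at 402, 363 and 437 CPM after IgG and 374, 370 and 389 CPM after anti-PD1. Both comparisons of genotypes separated the libraries fully, with log2 fold changes of 0.48 under IgG and 0.73 under anti-PD1 (edgeR adjusted p = 0.0205 and 0.00271). Heatr1, a factor of early 40S assembly, rose by 1.01 and 0.49 on the log2 scale (edgeR adjusted p = 0.00100 and 0.0443). Rrs1, which brings the 5S particle of Rpl5 and Rpl11 into the pre-60S subunit, rose by 0.60 under anti-PD1 (edgeR adjusted p = 0.00356) and had 0.29 under IgG (0.0761).

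Mitochondrial ribosomal proteins, which build the separate ribosome of the mitochondrion, had 15 of 76 genes called higher and 0 lower in A159V under anti-PD1 (median 0.42), beside the same 11.2% of all genes. With upper-quartile scaling 5 of 76 were called higher, a share near the 6.49% of all genes. With RLE factors there were 8 (7.83% of all genes) and with TMM without ribosomal protein genes 12 (9.43%). Without WT IgG 1 there were 28 (12.2%). Under IgG 3 were called higher and 2 lower (median -0.11), against 15.6% and 12.4% of all genes. A further list held 14 genes whose mRNAs also carry the oligopyrimidine tract, mostly translation factors but also Tpt1, Nap1l1, Hnrnpa1 and Npm1. Of these, 1 was called higher under IgG, Eif4b, and 0 under anti-PD1 (medians -0.17 and 0.17). Of all genes, 15.6% and 11.2% were called higher.

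The table held 4 host genes of small nucleolar RNAs, transcripts that carry the tract but encode no ribosomal protein: Gas5, Snhg5, Snhg6 and Snhg12. All 4 were called lower under IgG (median -0.91), against 12.4% of all genes. Under anti-PD1 0 were called and all 4 were above 0 (median 0.20). Under IgG, Snhg5 stood at 109.8, 69.8 and 61.4 CPM in the WT libraries and 42.1, 32.1 and 30.8 CPM in the mutant ones. All 4 genes were also called lower under IgG without WT IgG 1 (11.8% of all genes), but 3 of them with the length trend removed (13.9%). Among 12 regulators, Mtor and Eif4ebp2 were called higher under IgG and Eif4ebp1 and Cdkn1a under anti-PD1, and 0 were called lower, so 2 of 12 in each comparison lay near the 15.6% and 11.2% of all genes. Myc had log2 fold changes of 0.15 and -0.07, and Larp1 of 0.43 and 0.38 with edgeR adjusted p of 0.0646 and 0.106.

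Of 8 further ribosomal proteins outside the naming rule, Rpl22l1, the paralog of Rpl22, was called lower under IgG. Under IgG it was at 63.3, 44.0 and 38.1 CPM in WT and at 24.7, 21.3 and 5.37 CPM in A159V, and under anti-PD1 at 33.7, 35.5 and 31.6 CPM and at 20.9, 20.5 and 21.4 CPM. The mutant libraries were lower than the WT ones in both treatments, and the log2 fold change under IgG was -1.50 (SE 0.38, edgeR adjusted p = 0.0125). Rpl22l1 was the 1 gene of the 8 called lower under IgG, against 12.4% of all genes. Under anti-PD1 0 of the 8 were called lower, so Rpl22l1 was not called there (10.2% of all genes). Rpl7l1, the paralog of Rpl7, rose in both (0.37 and 0.42, edgeR adjusted p = 0.0483 and 0.0358).

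**Figure D5:**
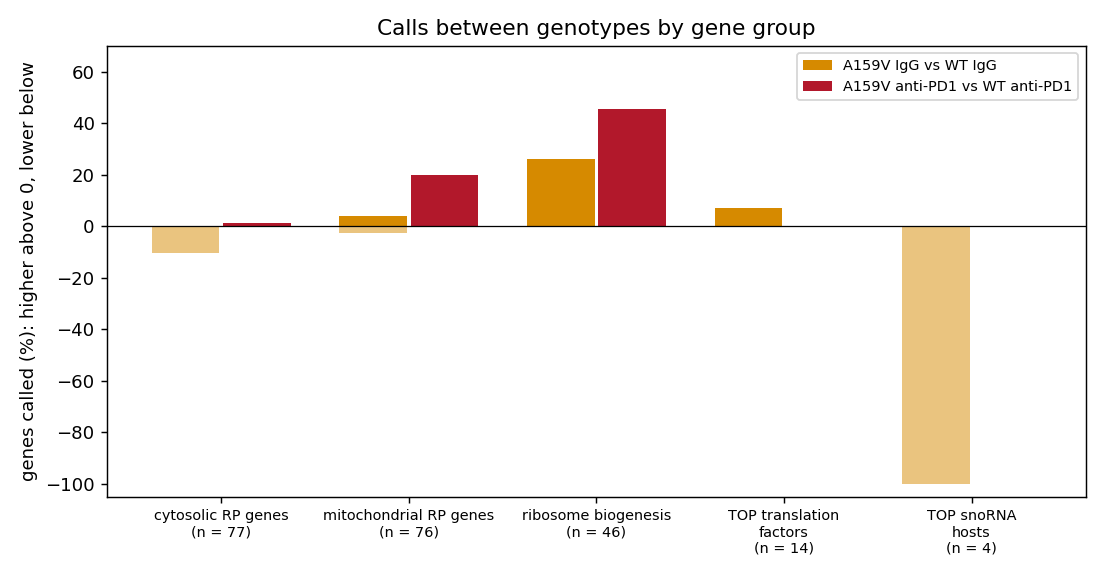
Percent of the tested genes of each group that were called higher (above 0) or lower (below 0) in A159V, under IgG (orange) and anti-PD1 (red); TOP stands for the 5′ terminal oligopyrimidine tract and n is the number of genes tested. Ribosome biogenesis factors have the highest share called higher, 21 of 46 under anti-PD1, and the cytosolic ribosomal protein (RP) genes 1 of 77. The group labelled TOP translation factors also holds Tpt1, Nap1l1, Hnrnpa1 and Npm1.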

How the data were processed

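Paired-end reads of libraries from polyA-selected RNA were aligned by the authors to mm10 with STAR, converted with Samtools and counted per gene with summarizeOverlaps; the deposited values are raw counts, not normalized, and the counting mode, strand setting, annotation and versions are not given in the sources used here. Ensembl IDs were matched to GENCODE M21 for 32064 of 33219 features. The counts were tested in 1 fit of all 12 libraries with edgeR 4.0.16 in R 4.3.3 (filterByExpr, TMM scaling, quasi-likelihood test, 8 residual degrees of freedom, Benjamini-Hochberg adjustment), with an adjusted p under 0.05 and a log2 fold change over 0.3 as limits. CPM values use TMM-scaled library sizes, and deviations use log2 CPM with a prior count of 2. DESeq2 1.42.0, voom (limma 3.58.1), other scalings and filters, length trends (loess, span 0.5), a leukocyte marker covariate, a replicate block and leaving out libraries were tried as alternatives. Scripts were tested on simulated data. The members and gene lists were chosen with earlier results of these data known. Named genes were members with known roles and, in each comparison, the members of smallest p in each direction, with some of the listed pathway genes. Genes whose shares separated the genotypes were named after their values were seen. Some named items are not reported here.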

Additional observations from a re-analysis of the deposited data

Results flagged for a closer look

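Rpl24 was the member in which the anti-PD1 libraries moved in opposite directions in the 2 genotypes without overlap. After anti-PD1 all 3 WT libraries lay below the 3 WT IgG libraries (3.79 to 4.16 against 5.62 to 10.5 CPM), and all 3 A159V libraries lay above the 3 A159V IgG libraries (3.87 to 4.90 against 2.02 to 3.81 CPM). The difference of the changes was 1.57 on the log2 scale (SE 0.39, edgeR quasi-likelihood adjusted p = 0.153), so it did not pass the threshold over all genes. The values rest on 38 to 193 counts per library, and most coding bases of Rpl24 are shared with an overlapping annotated transcript.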

How the results depend on the processing

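No called value changed sign under the alternatives tried, but the counts of called members moved widely, and the medians between genotypes did change sign: that under IgG was 0.05 with the principal length trend removed. For members lower in A159V under IgG (8), the count was 14 at an adjusted p under 0.1 and without a count filter, 13 with upper-quartile scaling, 15 with DESeq2, 3 with voom, 1 with only the 2 groups fitted, 0 with the leukocyte score as covariate and 2 when scaled to the members. Of all genes, 9% were called lower without a count filter, 16.1% with upper-quartile scaling, 16.4% with DESeq2 and 12% with voom. For counts at an adjusted p under 0.1, here and below, the share of all genes is not given. Those counts can thus not be set against a background. The share was 6.21% with only the 2 groups fitted, 4.23% with the leukocyte score and 3.3% when scaled to the members. Removing the trend with principal transcript length gave 4 lower and 5 higher, against 13.9% and 14.8% of all genes. For members higher under anti-PD1 (1), the count was 0 with RLE factors, upper-quartile scaling, TMM without ribosomal protein genes, at least 10 counts in every sample, the exon length trend removed, the leukocyte score, scaling to the members and DESeq2. Of all genes, 0% to 10.3% were called higher in those fits. The count was 2 at an adjusted p under 0.1 and with the principal length trend removed (11.4% of all genes in the latter). It was 7 with only the 2 groups fitted (17% of all genes) and 9 without WT IgG 1 and A159V IgG 5 together (17.3%). The median under anti-PD1 was 0.073 with either length trend removed, 0.060 with length and GC trends removed, 0.96 with the leukocyte score and -0.035 when scaled to the members. For anti-PD1 in WT, the count lower (0) was 13 at an adjusted p under 0.1 and without a count filter (1.4% of all genes in the latter). DESeq2 called 24 lower there (5.31% of all genes). The median in this comparison was -1.16 with the leukocyte score, -0.17 with the principal length trend removed and -0.019 when scaled to the members. The median interaction was 0.24 with the exon length trend removed, 1.10 with the leukocyte score and 0.036 with the principal length trend removed. It was 0.015 when scaled to the members and 0.21 without both libraries. DESeq2 called 1 member higher for the interaction (0.718% of all genes). The principal length trend, the scaling to members and the fit without both libraries were chosen after seeing the data, and the cause of these moves was not tested. Upper-quartile scaling moved the median of all genes under IgG from 0.02 to -0.12.

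Leaving out 1 library at a time gave 1 to 38 members lower under IgG, 0 to 4 higher under anti-PD1, 0 to 69 lower with anti-PD1 in WT, and 0 to 14 called for the interaction, whose median ran from 0.15 to 0.76. Of all genes, 7.73% to 16.4% were called lower under IgG in these fits and 4.4% to 14.2% higher under anti-PD1. Without WT IgG 4 the counts were 38, 3, 69 and 14, against 13.4%, 14.2%, 11.4% and 3.26% of all genes in the same directions. Without WT IgG 1 they were 3, 4, 0 and 0, against 11.8%, 12.2%, 0% and 0%. Without any 1 of the 6 anti-PD1 libraries 3 to 5 members were called lower under IgG (10.5% to 11.3% of all genes). With the replicate block 37 members were called lower under IgG and 4 higher under anti-PD1, against 16.6% and 19.6% of all genes. It gave 70 lower with anti-PD1 in WT and 30 higher for the interaction, against 14.8% and 8.24%. WT IgG 4 and A159V IgG 5 have numbers that no other library has, so the block in effect set both aside. Libraries with the same number did not deviate together (r from -0.18 to 0.20), which cannot show whether the numbers mark shared processing. Depth limits Rpl24 and Rpl3l, and 2 members could not be tested.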
